A study of Mus musculus with 16 samples.

Results

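Granulocyte-monocyte progenitors (GMPs) lacking an enhancer of Spi1, the gene of the transcription factor PU.1, were compared with GMPs of wild-type (WT) mice. The comparison holds 8 of the 16 libraries of the series, 4 UREΔ and 4 WT, chosen by the genotype and cell type of their labels. The other 8 libraries are LSKs (lineage-negative, Sca-1 positive, c-Kit positive stem and multipotent progenitor cells) of the same genotypes. UREΔ mice (labelled URE) carry a deletion of the upstream regulatory element of Spi1 in all their cells. They and their WT littermates were on a C57BL/6 background, and the bone marrow was taken at 8 to 12 weeks of age, before leukemia. GMPs were enriched on c-Kit beads and sorted as lineage-negative, Sca-1 negative, c-Kit positive, CD16/32 positive cells. Up to 10 ng of RNA per library was converted with a low-input kit that keeps no strand information and adds no molecular identifiers. The labels number the libraries of each group from 1 to 4, which stand for 4 mice per genotype.

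GMPs are the bone marrow stage from which neutrophils and monocytes separate. PU.1 binds ETS motifs in most myeloid enhancers. High PU.1 together with IRF8 and KLF4 is known to favour monocytes and dendritic cells, whereas C/EBP factors and GFI1 favour neutrophils. Primary (azurophil) granule proteins such as myeloperoxidase are made first, in promyelocytes, and secondary and tertiary granule proteins later. The receptors of M-CSF, GM-CSF and G-CSF, the colony-stimulating factors, carry the outside signals for these fates.

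Total counts lay between 20028302 and 27867976 per library, and values are given as CPM, counts scaled to the same library total after scaling the libraries with TMM. Every list of 4 values runs from replicate 1 to replicate 4. Principal component 1 (45.5% of the variance) separated the genotypes, and component 2 (26.3%) placed replicates 1 and 4 of both genotypes above replicates 2 and 3. Deviations from the group means of same-numbered libraries correlated across genes with r between 0.285 and 0.630, so the replicate number was kept as a block in the test. UREΔ replicate 4 correlated more with WT replicate 1 (r = 0.482) than with WT replicate 4 (r = 0.285). UREΔ replicate 1 and WT replicate 4 gave r = 0.341. The numbers thus need not mark matched pairs, and a pair below means libraries of the same number only. Transcripts of the X-linked Xist and of 4 Y-linked genes showed male RNA in UREΔ replicate 1 and WT replicates 1 to 3, and female RNA in UREΔ replicates 2 to 4 and WT replicate 4. Only the pairs numbered 1 and 4 were thus of a single sex, and values within these pairs are given beside some of the results. Of the genes that were lower in UREΔ GMPs (counted below), UREΔ replicate 3 was the highest UREΔ library in 40.3% and replicate 2 in 34.4%, against 13.4% for replicate 1 and 12% for replicate 4. Of the genes that were higher, UREΔ replicate 3 was the lowest UREΔ library in 52.3%, replicate 2 in 25.7%, replicate 1 in 14% and replicate 4 in 7.97%. These are sorted populations measured in bulk, so that fewer cells of a kind and less RNA per cell cannot be told apart.

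Spi1 (chromosome 2 from 91082390 to 91115756, GRCm38) comes first, as the gene whose enhancer is missing. It had 124, 74.2, 167 and 134 CPM in WT and 15.4, 24.5, 21.4 and 13.8 CPM in UREΔ GMPs. All UREΔ libraries lay below all WT libraries, and the level was 6.58-fold lower (log2 fold change −2.72, standard error 0.28, edgeR adjusted p = 0.000678). Within the sex-matched pairs 1 and 4 the log2 fold change was −3.16. Within pairs 2 and 3 alone it was −2.28 and not called (adjusted p = 0.0718, edgeR). The fall was smaller than in LSKs of the same genotypes, where the log2 fold change was −5.36, and the difference of 2.66 between the cell types passed the interaction test (adjusted p = 0.00786, edgeR).

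Across 13829 genes with enough counts for a test, 1317 (9.52%) were higher and 943 (6.82%) lower in UREΔ GMPs, 16.3% in either direction. Calls required a fold change above 1.5 together with an adjusted p (edgeR quasi-likelihood test, Benjamini-Hochberg) under 0.05. For 2098 genes (15.2% of those tested) the 4 UREΔ libraries did not overlap the 4 WT libraries, 7.93% being higher and 7.25% lower, and 1510 of these were called. Without the replicate block, 646 genes were higher (4.67%) and 502 lower (3.63%), and all 2260 called genes kept their direction. Within pairs 1 and 4 alone, 736 were higher (5.25%) and 608 lower (4.34%). There 2256 of the 2260 genes could be tested, all with an unchanged direction. Both fits reuse libraries that picked these genes, so the kept direction is not independent support. The counts fell to 787 and 605 without replicate 4 of both genotypes, and the lower genes to 580 without replicate 1. With Y-linked transcripts as a term of the fit, 489 genes were higher and 378 lower. Beside the block this term differs between genotypes mainly in the pairs of mixed sex. That fit therefore rests largely on pairs 1 and 4 and is not a check separate from them. The median log2 fold change over all genes was 0.01.

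**Figure D1:**
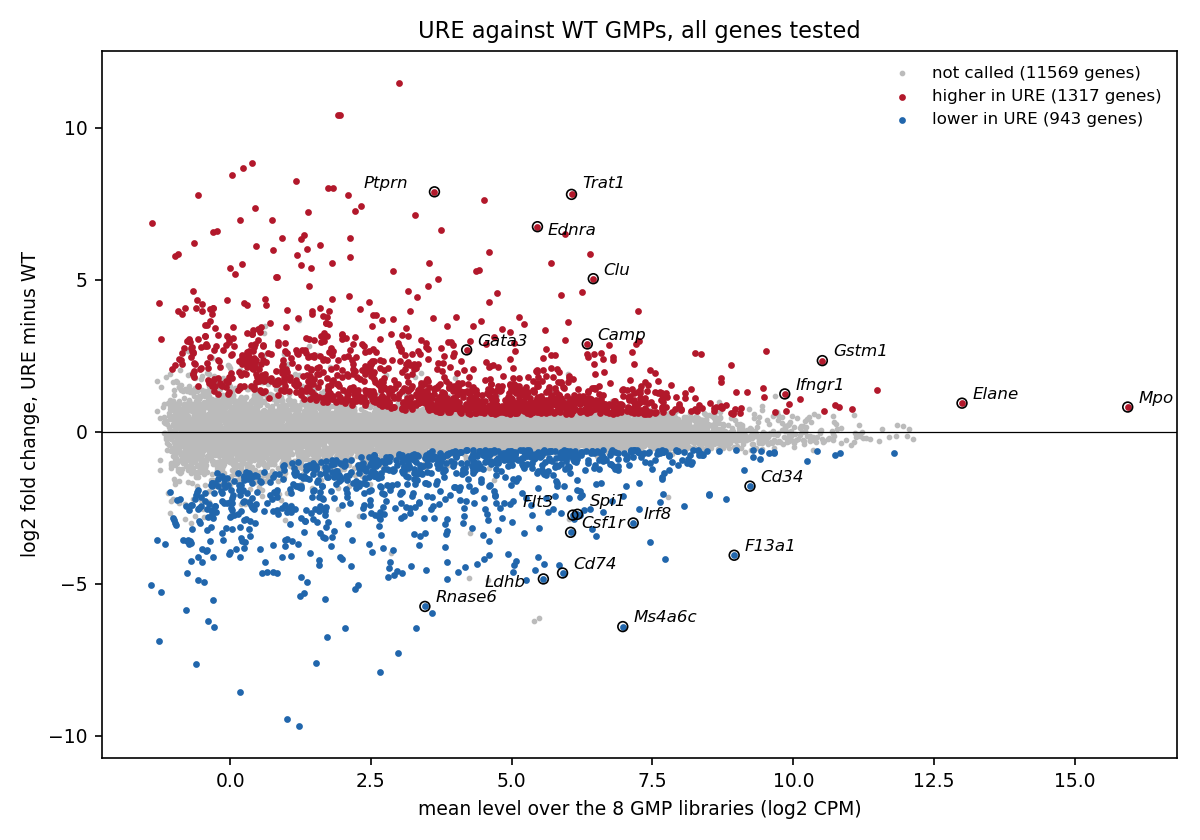
Log2 fold change (UREΔ minus WT GMPs) of each of the 13829 tested genes against its mean level in log2 CPM over 8 libraries. Red points mark the 1317 genes called higher, blue points the 943 called lower and grey points the rest, and the circled genes are described in the text. Mpo and Elane sit at the far right with small rises, and Ms4a6c and Trat1 are among the labelled genes furthest from the zero line.

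Among called genes that averaged 3 log2 CPM or more and whose genotypes did not overlap, the 15 largest falls were Gm10384, Ms4a6c, BE692007, Rnase6, Ms4a6b, Ldhb, Ebi3, Il31ra, Cd74, Pkib, Cd300a, Tpm4, Nrg1, Cd14 and Cd180. Ms4a6c (chromosome 19 from 11469366 to 11482192), a membrane protein of monocytes, had 178, 249, 379 and 178 CPM in WT and 1.33, 14.4, 2.94 and 0.598 CPM in UREΔ GMPs. The UREΔ libraries lay far below WT, and UREΔ replicate 2 was the highest of them (log2 fold change −6.41, standard error 0.64, edgeR adjusted p = 0.000621). The transcript BE692007 runs on the other strand and shares 1088 exonic bases with Ms4a6c, and reads of the pair cannot be told apart without strand. Rnase6 (chromosome 14 from 51123908 to 51132187), a secreted antimicrobial ribonuclease of monocytes and macrophages, had 18, 27.5, 21.3 and 18.2 CPM in WT and 0.514, 0.0893, 1.26 and 0 CPM in UREΔ GMPs, which is 53.8-fold lower (log2 fold change −5.75, standard error 0.69, edgeR adjusted p = 0.00126). Without 1 replicate the log2 fold change of Rnase6 lay between −6.72 and −5.25. Ldhb (chromosome 6 from 142490249 to 142507957), the B subunit of lactate dehydrogenase, had 64.9, 88.9, 108 and 103 CPM in WT and 1.67, 3.35, 3.96 and 4.04 CPM in UREΔ GMPs, which is 28.8-fold lower (log2 fold change −4.85, standard error 0.18, edgeR adjusted p = 1.31e-05). Ebi3, a subunit shared by the cytokines IL-27 and IL-35, had 22.8, 30.4, 31.8 and 25.7 CPM in WT and 0.60, 1.34, 1.49 and 0.598 CPM in UREΔ GMPs. Il31ra, the receptor subunit for interleukin 31, had 19.6, 15.1, 12.6 and 15.2 CPM in WT and 0.257, 0.67, 0.606 and 0.997 CPM in UREΔ GMPs. Apart from Ms4a6c in UREΔ replicate 2, these 5 genes stood at 4.04 CPM or less in UREΔ GMPs. Of these 15 genes Nrg1, which encodes the growth factor neuregulin 1, was the one not called without the block (adjusted p = 0.0544, edgeR). The rule required separate genotypes, so these genes had to be lower within pairs 1 and 4 too.

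The 15 largest rises by the same rule included Ptprn, Trat1, Heph, Mst1r, Ednra, Slc27a3, Chit1, Lypd6b, Shroom2, Thbs1, Clu, Tinagl1, Ptgds and Ptprf. Ptprn (chromosome 1 from 75247027 to 75264502), a phosphatase-like protein of secretory vesicles in neuroendocrine cells, had 0.155, 0.0363, 0 and 0.226 CPM in WT and 34.5, 20.3, 12.6 and 30.7 CPM in UREΔ GMPs (log2 fold change 7.89, standard error 0.40, edgeR adjusted p = 4.81e-05). Trat1 (chromosome 16 from 48730774 to 48772021), an adaptor of the T-cell receptor, had 1.08, 0.109, 0.090 and 1.31 CPM in WT and 148, 66.6, 188 and 129 CPM in UREΔ GMPs (log2 fold change 7.81, standard error 0.56, edgeR adjusted p = 0.000188). Neither gene exceeded 1.31 CPM in WT. Heph, the copper-dependent ferroxidase hephaestin, had 0.116, 0.254, 0.135 and 0.407 CPM in WT and 53, 42.5, 27.2 and 59.2 CPM in UREΔ GMPs. Ednra, an endothelin receptor of smooth muscle, had 0.813, 1.13, 0.675 and 0.543 CPM in WT and 102, 105, 46 and 94.8 CPM in UREΔ GMPs. Clu, the extracellular chaperone clusterin, had 5.34, 4.36, 4.36 and 4.25 CPM in WT and 135, 218, 62.9 and 263 CPM in UREΔ GMPs. UREΔ replicate 3 was the lowest UREΔ library for Heph, Ednra and Clu. Chit1, a chitinase of phagocytes, had 0.426, 0.727, 0.765 and 1.09 CPM in WT and 45, 63.5, 19.4 and 61.9 CPM in UREΔ GMPs. Ptgds, a prostaglandin D2 synthase, had 0.736, 1.2, 0.585 and 0.633 CPM in WT and 23, 31.5, 14.1 and 18.6 CPM in UREΔ GMPs. All 15 were called without the block and within pairs 1 and 4. They were picked for separate genotypes in the same libraries, so these calls are not independent support.

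The promoters of Rnase6, Ldhb, Ptprn and Trat1 are shown as examples of these large falls and rises. RefSeq gives them on GRCm38.p6, and the 250 bases before the most upstream start that its table lists for each gene are printed 5′ to 3′ on the gene's strand. For Ptprn this window lies within the GENCODE gene given above and shares 30 bases with its exons. The 3 motifs were searched on both strands and would stand in capitals: AGGAAGT, bound by PU.1 and other ETS factors, TGTGGTT, bound by RUNX factors, and TTGCNNAA, bound by C/EBP factors. None of these letters occurred in the 4 windows, which says only that they are not in these bases. The table lists 2 further starts of Rnase6, whose overlapping windows, not printed, both held the ETS and the C/EBP letters (the windows begin at 51128787 and 51128814 on chromosome 14).
Rnase6, chr14:51123658-51123907, plus strand: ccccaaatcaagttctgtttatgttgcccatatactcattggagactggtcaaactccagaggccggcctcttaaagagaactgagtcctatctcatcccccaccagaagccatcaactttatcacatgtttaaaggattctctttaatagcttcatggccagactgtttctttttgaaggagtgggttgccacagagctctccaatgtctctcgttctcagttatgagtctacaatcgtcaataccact
Ldhb, chr6:142507958-142508207, minus strand: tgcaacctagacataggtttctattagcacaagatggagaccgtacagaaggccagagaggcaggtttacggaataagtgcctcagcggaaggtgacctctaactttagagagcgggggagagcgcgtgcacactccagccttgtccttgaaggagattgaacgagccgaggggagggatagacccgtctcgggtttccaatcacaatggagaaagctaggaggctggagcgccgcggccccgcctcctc
Ptprn, chr1:75264209-75264458, minus strand: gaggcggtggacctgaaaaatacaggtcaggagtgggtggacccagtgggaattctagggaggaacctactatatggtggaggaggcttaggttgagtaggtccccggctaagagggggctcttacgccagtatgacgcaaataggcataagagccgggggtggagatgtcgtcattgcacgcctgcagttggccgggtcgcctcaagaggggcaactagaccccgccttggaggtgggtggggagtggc
Trat1, chr16:48772063-48772312, minus strand: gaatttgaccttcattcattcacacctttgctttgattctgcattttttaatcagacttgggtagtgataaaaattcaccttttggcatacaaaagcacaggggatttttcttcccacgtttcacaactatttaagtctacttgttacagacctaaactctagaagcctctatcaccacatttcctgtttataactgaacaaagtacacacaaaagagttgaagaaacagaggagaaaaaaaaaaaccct

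Over the windows of all 10061 tested genes found in the RefSeq table (12821 starts), 7.73% held the ETS motif, 3.42% the RUNX motif and 7.99% the C/EBP motif. Of 926 windows of genes called lower, 11% held the ETS motif, 2.81% the RUNX motif and 7.78% the C/EBP motif. Of 1356 windows of genes called higher, the shares were 8.04%, 4.42% and 10.1%. Among all 32851 windows of the table they were 7.69%, 4.40% and 9.56%. Each motif was counted on its own, matches of different motifs can share bases, several windows can belong to a gene, and a match is a stretch of letters and not a site of binding.

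Genes listed under primary granules were mostly higher in UREΔ GMPs. The list also holds genes that do not encode granule contents, among them Gstm1, Calr, Ms4a3 and Igfbp4. Of 14 listed genes, all tested, 9 were higher and 2 lower (78.6% called against 16.3% of all genes). The median log2 fold change was 0.84 against 0.01 over all genes. Mpo, which encodes myeloperoxidase, took between 4.04% and 10.3% of all counts of a library. It had 43405, 51831, 40114 and 44232 CPM in WT and 77336, 110468, 55504 and 79655 CPM in UREΔ GMPs. Each UREΔ library exceeded each WT library, by 1.75-fold on average (log2 fold change 0.81, standard error 0.21, edgeR adjusted p = 0.0324). Elane, which encodes neutrophil elastase, had 4482, 5472, 5547 and 6081 CPM in WT and 10414, 16812, 5992 and 10574 CPM in UREΔ GMPs (log2 fold change 0.94, standard error 0.25, edgeR adjusted p = 0.0377), with UREΔ replicate 3 below WT replicate 4. Ctsg, encoding cathepsin G, had 782, 2312, 2867 and 881 CPM in WT and 2105, 6251, 3829 and 4018 CPM in UREΔ GMPs, so that the genotypes overlapped between replicates while each UREΔ library exceeded its own numbered WT library (log2 fold change 1.37, standard error 0.27, edgeR adjusted p = 0.0108). Gstm1, a glutathione transferase, had 339, 608, 655 and 339.9 CPM in WT and 2040.5, 3727, 1597 and 2408 CPM in UREΔ GMPs and was 5.06-fold higher (log2 fold change 2.34, standard error 0.26, edgeR adjusted p = 0.00099). Cd63, a granule membrane tetraspanin, had 305, 435, 402 and 394 CPM in WT and 1179, 972, 916 and 1045 CPM in UREΔ GMPs and Nkg7, another granule membrane protein, 503, 813, 898 and 654 CPM in WT and 1442, 1904, 1227 and 1457 CPM in UREΔ GMPs. Prtn3, encoding proteinase 3, did not follow, with 959.7, 1623, 1694 and 1235 CPM in WT and 878, 2261, 1048 and 1793 CPM in UREΔ GMPs (log2 fold change 0.05, standard error 0.22, edgeR adjusted p = 0.9). Ms4a3, a membrane protein typical of GMPs, went the other way with 384, 702, 709 and 475 CPM in WT and 71.3, 346, 98.4 and 122 CPM in UREΔ GMPs (log2 fold change −2.07, standard error 0.28, edgeR adjusted p = 0.00216), as did Igfbp4, which binds insulin-like growth factors, with 129, 109, 99.3 and 155 CPM in WT and 26.8, 29.2, 37.7 and 23.4 CPM in UREΔ GMPs.

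Without the block 3 of the 9 were called (Cd63, Gstm1 and Nkg7), within pairs 1 and 4 there were 6, and leaving out replicate 1, 2, 3 or 4 gave 3, 4, 10 and 5. The adjusted p of Mpo became 0.118 without the block, 0.109 without replicate 1 and 0.199 without replicate 2 (edgeR), and that of Elane 0.075, 0.137 and 0.172, with 0.0826 without replicate 4 and 0.239 in DESeq2. Ctsg had an adjusted p of 0.176 without the block and 0.0546 without replicate 1 (edgeR). The 2 falls were called in all of these fits. Pairs 2 and 3 alone gave 1 rise and 1 fall in this list.

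The later neutrophil genes, of the secondary and tertiary granules and of mature neutrophils, were mostly higher too. Of 35 listed genes 30 could be tested, of which 19 were higher and 2 lower (70.0% called against 16.3% of all genes). The median log2 fold change was 1.41. Lcn2, the iron-binding lipocalin of secondary granules, had 1.47, 2.94, 1.89 and 2.26 CPM in WT and 25.2, 37.5, 18.7 and 38.1 CPM in UREΔ GMPs and was 13.8-fold higher (log2 fold change 3.78, standard error 0.21, edgeR adjusted p = 8.91e-05). Camp, the cathelicidin, had 8.02, 19.4, 41.3 and 5.56 CPM in WT and 33.9, 155, 322 and 63.1 CPM in UREΔ GMPs, and Ngp, another secondary granule protein, 28.9, 27.9, 21.5 and 19.3 CPM in WT and 105, 201, 311 and 136 CPM in UREΔ GMPs. For Lcn2 and Ngp the genotypes did not overlap, while WT replicate 3 exceeded UREΔ replicate 1 for Camp. Padi4, which citrullinates histones in neutrophils, had 25.2, 16.4, 7.29 and 39.5 CPM in WT and 95, 92.6, 53.5 and 85.4 CPM in UREΔ GMPs (log2 fold change 2.09, standard error 0.28, edgeR adjusted p = 0.00207). Cd177, a neutrophil surface protein, had 4.84, 2.22, 1.93 and 1.72 CPM in WT and 11.4, 32.2, 16.1 and 9.47 CPM in UREΔ GMPs. Hp, haptoglobin, had 174, 213, 191 and 217 CPM in WT and 577, 858, 379.8 and 743 CPM in UREΔ GMPs. Mgst2, a microsomal glutathione transferase, had 16.5, 38.3, 53.4 and 30.3 CPM in WT and 103, 308, 153 and 191 CPM in UREΔ GMPs. The genotypes did not overlap for Cd177, Hp or Mgst2. S100a8, which forms calprotectin with S100a9, had 10.3, 48.1, 50.4 and 8.73 CPM in WT and 41, 248, 191 and 172 CPM in UREΔ GMPs and S100a9 3.02, 16.6, 19.2 and 3.75 CPM in WT and 5.1, 65.6, 59.7 and 21.9 CPM in UREΔ GMPs. Both were lower in replicates 1 and 4 of WT than in replicates 2 and 3, each UREΔ library exceeded its own numbered WT library, and both were called with the block (adjusted p = 0.00312 and 0.00388, edgeR) but not without it (0.0684 and 0.256). Cebpe, the C/EBP factor of secondary granules, had 52.4, 49.6, 53.7 and 97 CPM in WT and 121, 90.6, 73.9 and 122 CPM in UREΔ GMPs (log2 fold change 0.71, standard error 0.17, edgeR adjusted p = 0.025).

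The 2 lower genes of this list were Mmp8, the neutrophil collagenase, with 6.2, 5.41, 8.91 and 4.21 CPM in WT and 0.557, 1.79, 0.326 and 0.299 CPM in UREΔ GMPs (log2 fold change −3.28, standard error 0.52, edgeR adjusted p = 0.00425), and Chil3, a chitinase-like lectin also made by monocytes, with 3.25, 5.52, 6.34 and 1.85 CPM in WT and 0.0857, 0.58, 0.14 and 1.25 CPM in UREΔ GMPs (log2 fold change −3.29, standard error 0.78, edgeR adjusted p = 0.0239). Ltf, lactoferrin, was not called with 9.57, 9.96, 0.18 and 1.81 CPM in WT and 7.16, 26.8, 19.9 and 7.73 CPM in UREΔ GMPs, a spread of replicates that covered both genotypes. Without the block 11 of the 19 rises and both falls were called, and within pairs 1 and 4 there were 15 rises and 1 fall. Pairs 2 and 3 alone gave 8 rises and no fall. The adjusted p of Chil3 rose to 0.0902 without replicate 1 and 0.0656 without replicate 2, and that of Cebpe to 0.084 and 0.11 (edgeR), and to 0.179 for Cebpe without the block.

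The monocyte programme was lower. Of 48 listed monocyte and macrophage genes, 45 were tested, with a median log2 fold change of −2.20. Of these 32 were lower and 1 higher, 73.3% called against 16.3% of all genes. Among these were the M-CSF receptor gene Csf1r with 239, 84.1, 36.8 and 123 CPM in WT and 6.39, 22.5, 6.85 and 8.68 CPM in UREΔ GMPs (log2 fold change −3.31, standard error 0.53, edgeR adjusted p = 0.0043), and the chemokine receptor gene Ccr2, which lets monocytes leave the marrow, with 104, 135, 168 and 116 CPM in WT and 12.9, 51, 22 and 15.6 CPM in UREΔ GMPs (log2 fold change −2.57, standard error 0.28, edgeR adjusted p = 0.000947). Ly86, the partner of CD180, had 41.6, 77.4, 90.6 and 33.9 CPM in WT and 0.729, 15.8, 1.91 and 1.75 CPM in UREΔ GMPs. Cd14, the co-receptor for lipopolysaccharide, had 29.9, 29.9, 39.5 and 36.3 CPM in WT and 0.686, 3.8, 1.91 and 0.848 CPM in UREΔ GMPs. F13a1, coagulation factor XIII A of monocytes, had 999, 930.4, 734 and 815 CPM in WT and 23.5, 387, 25.8 and 42 CPM in UREΔ GMPs (log2 fold change −4.07, standard error 0.68, edgeR adjusted p = 0.0053). In each of these 5 genes UREΔ replicate 2 was the highest UREΔ library, and in F13a1 it stood at 387 CPM against 42 CPM or less in the others. UREΔ replicate 2 was the highest UREΔ library in 21 of the 32 lower genes of this list.

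Further falls of this list included genes of lysosomal proteins. Ctss, encoding cathepsin S, had 41.1, 64.8, 79.8 and 37.3 CPM in WT and 3.3, 6.61, 16.3 and 5.73 CPM in UREΔ GMPs (log2 fold change −2.97, standard error 0.24, edgeR adjusted p = 0.00029). Cd68 had 42.1, 56.9, 55.6 and 53.3 CPM in WT and 6.21, 10.8, 16.6 and 8.18 CPM in UREΔ GMPs. Mpeg1, the pore-forming perforin-2, had 79.3, 37.1, 24.8 and 46.9 CPM in WT and 5.4, 15.3, 4.76 and 8.18 CPM in UREΔ GMPs. Tgfbi, a matrix protein of monocytes, had 18.8, 12.1, 9.13 and 14.7 CPM in WT and 0.729, 0.982, 0.559 and 1.4 CPM in UREΔ GMPs. None of these genes overlapped between genotypes. Cd300a, an inhibitory receptor, had 78.2, 59, 56.1 and 55.5 CPM in WT and 1.29, 4.42, 3.5 and 1.6 CPM in UREΔ GMPs. Tifab, an inhibitor of TRAF signalling, had 211, 200.5, 127 and 135 CPM in WT and 20.4, 139.8, 17.6 and 26.7 CPM in UREΔ GMPs, where UREΔ replicate 2 overlapped WT. The one higher gene was Slpi, a protease inhibitor that neutrophils make too, with 86.5, 131, 139 and 46.8 CPM in WT and 550.4, 609, 412 and 640.2 CPM in UREΔ GMPs (log2 fold change 2.55, standard error 0.33, edgeR adjusted p = 0.00172). Lyz2, lysozyme, which both lineages make, did not differ beyond its spread, with 149.99, 232, 245 and 173 CPM in WT and 117, 319.9, 181 and 170.3 CPM in UREΔ GMPs (log2 fold change −0.09, standard error 0.17). Without the block 24 of the 32 falls were called. Among those lost were F13a1 (adjusted p = 0.0911, edgeR) and Tifab (0.167, and 0.053 without replicate 4). Without replicate 2 of both genotypes there were 29 falls, and within pairs 1 and 4 there were 28. Pairs 2 and 3 alone gave 8 falls, and the fit with Y-linked transcripts as a term gave 22.

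**Figure D2:**
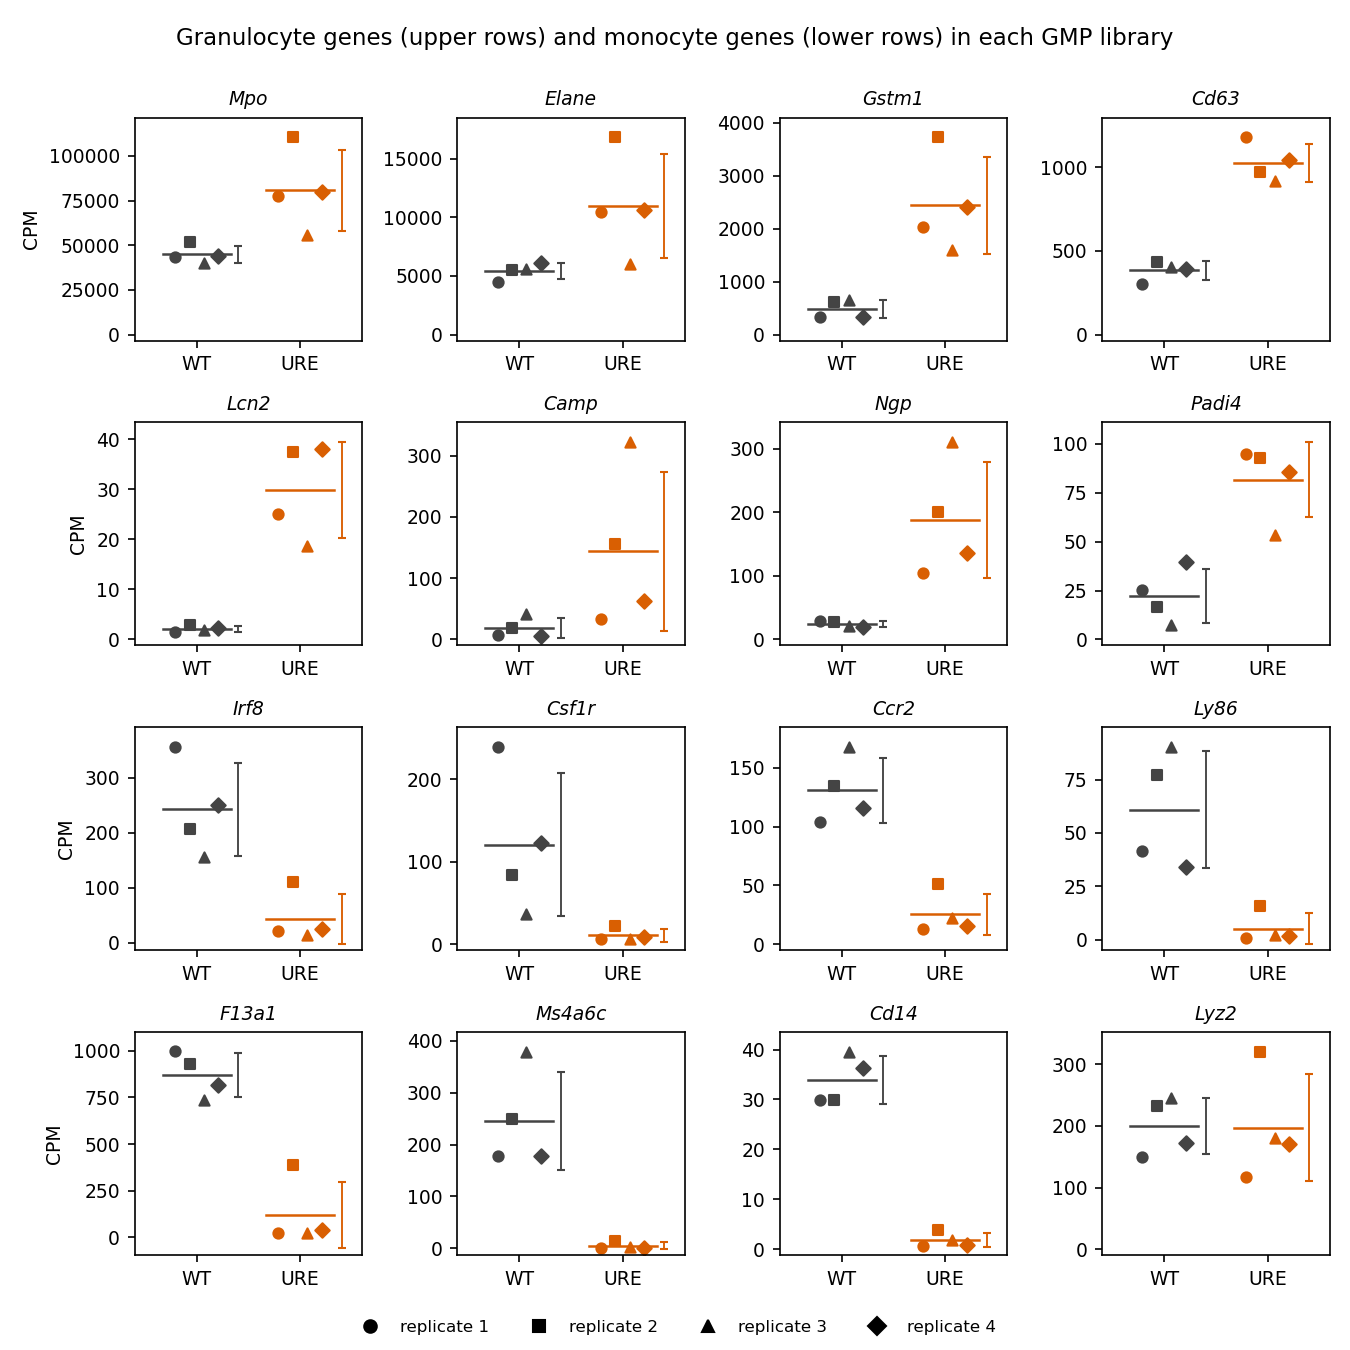
Level in CPM (vertical axes, linear from 0) of 8 granulocyte genes and 8 monocyte genes in the 4 WT (grey) and 4 UREΔ (orange) GMP libraries. Symbols mark replicates 1 to 4, horizontal lines the means and bars 1 SD (n = 4). For Lcn2 UREΔ libraries lie between 18.7 and 38.1 CPM against 1.47 to 2.94 CPM in WT, and for Irf8, F13a1 and Ms4a6c the square of UREΔ replicate 2 stands above the other UREΔ points.

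Genes of dendritic cells and antigen presentation went down as well. Of 24 listed genes 16 were tested and 9 were lower, none higher (56.25% called against 16.3% of all genes). The median log2 fold change was −1.06. Cd74, the invariant chain of MHC class II, had 104, 143, 109.6 and 100.03 CPM in WT and 3.69, 2.28, 11.6 and 3.79 CPM in UREΔ GMPs (log2 fold change −4.65, standard error 0.41, edgeR adjusted p = 0.000377), with UREΔ replicate 3 highest in its group. The class II chains followed, H2-Aa with 17, 25.4, 20.7 and 11.4 CPM in WT and 1.03, 2.54, 2.7 and 0.947 CPM in UREΔ GMPs, H2-Ab1 with 56.3, 94.2, 90.3 and 68.9 CPM in WT and 9.34, 37.5, 19.7 and 10.9 CPM in UREΔ GMPs and H2-Eb1 with 5.65, 13.6, 11.7 and 4.34 CPM in WT and 1.03, 1.21, 1.45 and 0.997 CPM in UREΔ GMPs. Clec9a, which marks one type of conventional dendritic cell, had 0.968, 1.38, 1.21 and 1.22 CPM in WT and 0, 0.134, 0.186 and 0 CPM in UREΔ GMPs. Flt3, the receptor kinase of multipotent and dendritic progenitors, had 207, 78.8, 72.2 and 115 CPM in WT and 25.8, 8.88, 18.1 and 16.2 CPM in UREΔ GMPs (log2 fold change −2.75, standard error 0.21, edgeR adjusted p = 0.000235), without overlap. Without the block 7 of the 9 were called.

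Of 80 listed myeloid and lineage transcription factors 69 were tested, and 10 were higher and 11 lower (30.4% called against 16.3% of all genes), with a median of −0.01. Irf8, the factor of monocyte and dendritic progenitors, had 357, 208, 156 and 250.3 CPM in WT and 20.7, 111, 14.6 and 24 CPM in UREΔ GMPs (log2 fold change −3.0, standard error 0.49, edgeR adjusted p = 0.00503). Klf4, a monocyte factor, was near the lower limit of detection with 0.62, 1.34, 1.53 and 0.633 CPM in WT and 0.0429, 0.313, 0.0932 and 0.0997 CPM in UREΔ GMPs. Irf5 had 22.2, 9.96, 6.03 and 13.4 CPM in WT and 1.67, 1.7, 2.84 and 2.19 CPM in UREΔ GMPs (log2 fold change −2.5, standard error 0.41, edgeR adjusted p = 0.00498). Cebpa, which GMP formation needs, had 9.22, 18.4, 21.8 and 16.6 CPM in WT and 15, 26.5, 23.5 and 15 CPM in UREΔ GMPs and was not called (log2 fold change 0.30, standard error 0.19). Myb, a factor of progenitor growth, was not called either, with 229, 223, 312 and 284 CPM in WT and 268, 275, 235 and 224 CPM in UREΔ GMPs. Some factors known from lymphoid cells were higher. Gata3 had 4.72, 3.78, 2.7 and 8.91 CPM in WT and 40.9, 16.6, 38.6 and 30.3 CPM in UREΔ GMPs (log2 fold change 2.69, standard error 0.34, edgeR adjusted p = 0.0017). Tcf7 had 0.31, 0.799, 1.12 and 0.362 CPM in WT and 5.96, 2.05, 4.24 and 3.04 CPM in UREΔ GMPs. Ets1 had 27.1, 28.4, 19.6 and 41.2 CPM in WT and 129, 122, 52.6 and 100.5 CPM in UREΔ GMPs. Trib1, a pseudokinase that directs C/EBPα to degradation, had 0.813, 0.472, 0.18 and 1.18 CPM in WT and 5.49, 4.82, 4.9 and 6.13 CPM in UREΔ GMPs (log2 fold change 3.16, standard error 0.41, edgeR adjusted p = 0.00189). The stem cell factor genes Hoxa9 (30.4, 45.7, 48.5 and 55.9 CPM in WT and 16.5, 31.6, 30.4 and 17.5 CPM in UREΔ GMPs) and Sox4 (60.4, 160.3, 168 and 99.5 CPM in WT and 30.7, 56.4, 96 and 34.5 CPM in UREΔ GMPs) were lower with the block.

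Without the block 6 factor genes were higher and 5 lower, and without replicate 1 or replicate 4 the rises numbered 6, with 7 and 8 falls. Within pairs 1 and 4 there were 8 rises and 8 falls, and within pairs 2 and 3 none of either. Hoxa9 had an adjusted p of 0.0952 and Sox4 of 0.155 without the block, Hoxa9 0.063 without replicate 1 and Tcf7 0.059 without replicate 4 (edgeR).

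Of 69 cytokine and growth factor receptor genes 60 were tested, and 14 were higher and 17 lower, a share of 51.7% called against 16.3% of all genes. The colony-stimulating factor receptors split. Csf1r fell 9.93-fold. Csf2ra, the ligand-binding chain for GM-CSF, had 55.3, 48.4, 61.7 and 64.1 CPM in WT and 9.21, 21.3, 16.7 and 12.2 CPM in UREΔ GMPs (log2 fold change −2.01, standard error 0.24, edgeR adjusted p = 0.00126). Csf3r, the G-CSF receptor of neutrophils, was higher in each pair, with 185, 99.5, 33.6 and 217 CPM in WT and 305, 293, 109 and 384 CPM in UREΔ GMPs (log2 fold change 1.2, standard error 0.19, edgeR adjusted p = 0.00445). Its levels in replicates 1 and 4 exceeded those in replicates 2 and 3 within each genotype, and without the block its adjusted p was 0.346. Kit, the stem cell factor receptor and a marker of the sort, had 1078, 430.3, 236 and 754 CPM in WT and 986, 498, 492 and 819 CPM in UREΔ GMPs, again with higher values in replicates 1 and 4 (log2 fold change 0.31, standard error 0.20).

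For interferon gamma, interleukin 1 and interleukin 12, receptor genes that share a ligand moved in opposite directions. Ifngr1, the ligand-binding chain for interferon gamma, had 574, 550.2, 477 and 581 CPM in WT and 1362, 1411, 1008 and 1413 CPM in UREΔ GMPs and rose (log2 fold change 1.24, standard error 0.13, edgeR adjusted p = 0.000675), whereas its partner Ifngr2 had 36.2, 39.4, 60.4 and 29.7 CPM in WT and 4.63, 18.7, 11.7 and 7.48 CPM in UREΔ GMPs and fell (log2 fold change −2.09, standard error 0.29, edgeR adjusted p = 0.00244). Il1r1, the signalling receptor for interleukin 1, had 21.1, 9.59, 11.7 and 25.3 CPM in WT and 4.71, 4.06, 6.43 and 4.54 CPM in UREΔ GMPs (log2 fold change −1.69, standard error 0.30, edgeR adjusted p = 0.00721). Il1r2, its decoy, had 0.387, 0.872, 0.45 and 1.13 CPM in WT and 5.06, 7.9, 3.5 and 5.44 CPM in UREΔ GMPs (log2 fold change 2.99, standard error 0.34, edgeR adjusted p = 0.00102). Il12rb1 had 3.52, 0.545, 1.12 and 3.57 CPM in WT and 13.7, 5.58, 5.92 and 12.5 CPM in UREΔ GMPs and was higher. Il12rb2 had 12.2, 7.74, 6.12 and 10.5 CPM in WT and 0.214, 0.536, 0.186 and 0.15 CPM in UREΔ GMPs and was lower. They encode the chains of the interleukin 12 receptor. Il12rb2 shares 1519 exonic bases with Serbp1 on the other strand. Il6st, the chain gp130 that signals for the interleukin 6 family, had 162, 49.5, 30.4 and 83.4 CPM in WT and 8.1, 11.7, 4.15 and 7.73 CPM in UREΔ GMPs (log2 fold change −3.18, standard error 0.35, edgeR adjusted p = 0.000885). Lifr, which pairs with it, had 2.25, 1.64, 5.04 and 1.95 CPM in WT and 0.0857, 0.134, 0.373 and 0 CPM in UREΔ GMPs. Without the block the adjusted p of Il12rb1 was 0.0701, and the other 7 genes of this paragraph were called.

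Receptor kinase genes moved in both directions. Mst1r, the receptor of macrophage-stimulating protein, rose from near 0, with 0.465, 0.0363, 0.045 and 0.0452 CPM in WT and 31.1, 9.73, 15.6 and 20 CPM in UREΔ GMPs (log2 fold change 7.13, standard error 0.43, edgeR adjusted p = 0.000115). Met, the hepatocyte growth factor receptor of the same family, had 15, 14.2, 12.1 and 10.4 CPM in WT and 0.214, 2.14, 0.0932 and 0.299 CPM in UREΔ GMPs (log2 fold change −4.79, standard error 0.63, edgeR adjusted p = 0.00196). Without 1 replicate the log2 fold change of Met lay between −5.95 and −4.32. Tek, the angiopoietin receptor, had 15.6, 13.1, 4.86 and 23.8 CPM in WT and 0.471, 0.536, 0.699 and 0.199 CPM in UREΔ GMPs (log2 fold change −4.7, standard error 0.56, edgeR adjusted p = 0.00123). Both stood at 2.14 CPM or less in every UREΔ library. Il5ra, which binds interleukin 5 on eosinophil and basophil progenitors, had 2.63, 7.12, 5.13 and 2.8 CPM in WT and 0, 0, 0 and 0 CPM in UREΔ GMPs. No count was found in any UREΔ library, and set against a floor of 3 counts per library WT was at least 32.0-fold higher. Tnfrsf1b, a TNF receptor, had 57.9, 24.2, 10.2 and 32.7 CPM in WT and 112, 86.1, 30 and 157 CPM in UREΔ GMPs and was called with the block only (adjusted p = 0.00191 against 0.139, edgeR). Over the whole list 7 rises and 15 falls were called without the block, and 8 and 16 within pairs 1 and 4.

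**Figure D3:**
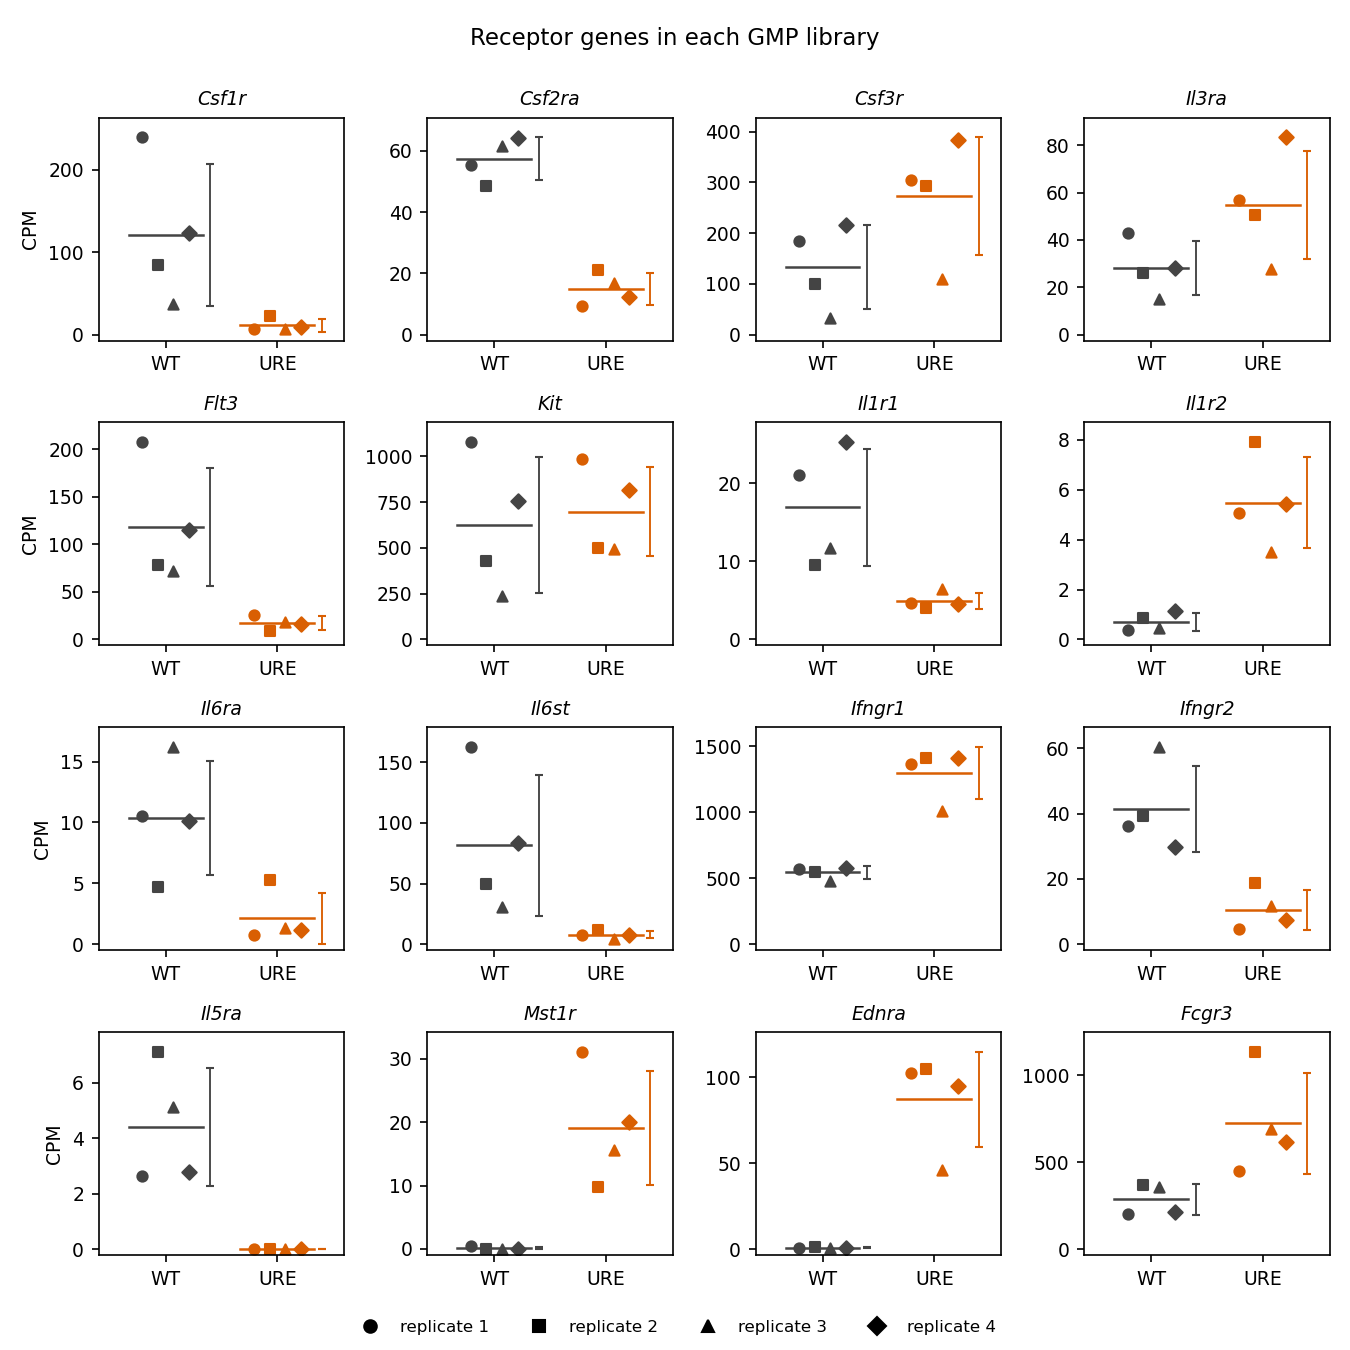
Level in CPM (vertical axes, linear from 0) of 16 receptor genes in the 4 WT (grey) and 4 UREΔ (orange) GMP libraries, with symbols for replicates 1 to 4, lines for means and bars for 1 SD (n = 4). Ifngr1 rises from between 477 and 581 CPM in WT to between 1008 and 1413 CPM in UREΔ libraries, while Ifngr2 falls, and Csf3r and Kit show the spread between replicates within a genotype.

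Chemokine and other chemoattractant receptor genes moved in both directions, with 14 higher and 12 lower of 49 tested (63 listed, 53.1% called against 16.3% of all genes) and a median of −0.31. The list also holds receptors of other mediators, among them Ednra and Ptgir. Ednra and Ccr2 are described above. Ptgir, the prostacyclin receptor, had 5.69, 1.89, 0.72 and 3.48 CPM in WT and 63, 19.2, 4.85 and 59.8 CPM in UREΔ GMPs (log2 fold change 3.48, standard error 0.24, edgeR adjusted p = 0.00018). Ltb4r1, which guides neutrophils to leukotriene B4, had 43.6, 56, 53.4 and 40.9 CPM in WT and 105, 170.2, 106 and 178 CPM in UREΔ GMPs. The receptor gene P2ry10 had 1.16, 1.02, 1.39 and 0.407 CPM in WT and 5.57, 5.45, 8.11 and 4.84 CPM in UREΔ GMPs. P2rx7, the ATP-gated channel of macrophages, had 11.3, 7.85, 14.2 and 7.1 CPM in WT and 1.54, 1.88, 2.61 and 0.449 CPM in UREΔ GMPs (log2 fold change −2.75, standard error 0.33, edgeR adjusted p = 0.00133). Gpr183, an oxysterol receptor, had 8.87, 15.8, 13.4 and 3.98 CPM in WT and 1.89, 5.49, 3.5 and 1.6 CPM in UREΔ GMPs, lower in each pair, with an adjusted p of 0.00236 with and 0.0755 without the block (edgeR). Without the block 6 genes were called in each direction, and leaving out replicate 1, 2 or 4 gave 8 or 9 in each direction. Within pairs 1 and 4 there were 8 rises and 7 falls.

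For pattern recognition and Fc receptors 18 genes were lower and 7 higher of 52 tested (61 listed, 48.1% called against 16.3% of all genes), with a median of −0.60. Tlr2 had 19.4, 16.4, 13.2 and 12.4 CPM in WT and 2.44, 3.35, 3.31 and 1.75 CPM in UREΔ GMPs (log2 fold change −2.52, standard error 0.25, edgeR adjusted p = 0.000558). Cd180, a Toll-like receptor homologue without its own signalling domain, had 21.1, 13.6, 14.3 and 20.9 CPM in WT and 0.514, 1.34, 1.03 and 0.449 CPM in UREΔ GMPs. Tyrobp, the adaptor DAP12, had 70.9, 146, 154 and 47.5 CPM in WT and 9.39, 52.4, 20.7 and 16.7 CPM in UREΔ GMPs, with an adjusted p of 0.00207 with and 0.0561 without the block (edgeR). Upwards went Fcgr3, an Fc receptor for IgG and part of the CD16/32 antigen of the sort, with 204, 371, 356 and 216 CPM in WT and 451, 1136, 695 and 617 CPM in UREΔ GMPs (log2 fold change 1.31, standard error 0.15, edgeR adjusted p = 0.00109), Trem1, an amplifier of neutrophil activation, with 16.2, 19.3, 9.58 and 17.7 CPM in WT and 59.7, 70.8, 29.4 and 55.5 CPM in UREΔ GMPs, and the lectin receptor gene Clec4e with 19.7, 35.5, 49.8 and 26.3 CPM in WT and 107, 94.8, 119 and 94.6 CPM in UREΔ GMPs (log2 fold change 1.74, standard error 0.21, edgeR adjusted p = 0.0013). The other gene of that antigen, Fcgr2b, had 74.6, 84.1, 83.2 and 75.9 CPM in WT and 32.5, 74.5, 32.8 and 42.2 CPM in UREΔ GMPs (log2 fold change −0.89, standard error 0.20, edgeR adjusted p = 0.0215). The sort selected on the CD16/32 antigen, so their levels are not independent of it. Without the block 6 were higher and 14 lower.

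Of 53 integrin, selectin and other adhesion genes 42 were tested, 8 higher and 11 lower (45.2% called against 16.3% of all genes), with a median of −0.31. The integrin chains diverged. Itgam, the CD11b chain, had 29, 23.8, 10.8 and 20.7 CPM in WT and 2.79, 11.3, 1.82 and 3.44 CPM in UREΔ GMPs and was lower. Itgal, the CD11a chain, had 171, 58.1, 31.7 and 94.2 CPM in WT and 338, 138, 77.6 and 298 CPM in UREΔ GMPs and Itgb2, the beta chain of both, had 67.9, 64.2, 35 and 58.5 CPM in WT and 122, 146, 68.4 and 112 CPM in UREΔ GMPs, both higher in each pair. Their adjusted p values were 0.00365, 0.000894 and 0.00173 with the block and 0.0542, 0.261 and 0.0622 without it (edgeR). Itgam shares 3450 exonic bases with the model Gm49368. Cd34, a progenitor sialomucin that was not used in the sort, had 995, 882, 828 and 1027 CPM in WT and 261, 285, 254 and 274 CPM in UREΔ GMPs and was 3.46-fold lower in a narrow range (log2 fold change −1.79, standard error 0.13, edgeR adjusted p = 0.000187). Adgrl4, an adhesion receptor of endothelium, had 368, 295, 277 and 370.5 CPM in WT and 66.3, 90, 38.9 and 79.7 CPM in UREΔ GMPs (log2 fold change −2.31, standard error 0.19, edgeR adjusted p = 0.000296). Cdh1, encoding E-cadherin, had 12.2, 4.91, 2.07 and 3.8 CPM in WT and 0.943, 0.848, 0.28 and 0.549 CPM in UREΔ GMPs. Icam1 had 17.1, 18.5, 12.5 and 19.5 CPM in WT and 5.06, 6.79, 5.41 and 3.64 CPM in UREΔ GMPs, and the tetraspanin gene Cd9 had 72.7, 102, 88.4 and 74.4 CPM in WT and 179.7, 168, 198 and 192 CPM in UREΔ GMPs (log2 fold change 1.14, standard error 0.14, edgeR adjusted p = 0.00155). Without the block 3 were higher and 7 lower, and without replicates 1, 3 or 4 the rises numbered 5, 5 and 6. Within pairs 1 and 4 there were 4 rises and 12 falls.

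Central carbon metabolism was examined in lists of glycolysis, the pentose phosphate pathway, the TCA cycle and oxidative phosphorylation. Of 33 glycolysis and gluconeogenesis genes tested (39 listed), 2 were higher and 2 lower, a share of 12.1% against 16.3% of all genes. Besides Ldhb, lower by 28.8-fold, its A subunit partner Ldha had 823, 1078, 844 and 692 CPM in WT and 712, 867, 822 and 849 CPM in UREΔ GMPs and was not called (log2 fold change −0.07, standard error 0.14). The other fall was Slc2a6, a hexose transporter of lysosomes, with 12.7, 7.85, 6.07 and 7.24 CPM in WT and 1.59, 4.87, 1.26 and 1.84 CPM in UREΔ GMPs. The rises were Pfkfb4, which sets fructose 2,6-bisphosphate, with 11.8, 6.76, 8.05 and 10.6 CPM in WT and 37.1, 21.5, 19.7 and 34 CPM in UREΔ GMPs (log2 fold change 1.57, standard error 0.16, edgeR adjusted p = 0.000682), and the lactate exporter gene Slc16a3 with 22.6, 3.67, 0.855 and 11.1 CPM in WT and 27, 13.5, 4.48 and 34 CPM in UREΔ GMPs. The adjusted p of Slc16a3 was 0.602 without the block, 0.0702 without replicate 2 and 0.0898 without replicate 4, and that of Slc2a6 0.0528 without replicate 1 and 0.054 without replicate 4 (edgeR). Of 11 pentose phosphate genes 1 was called (9.09% against 16.3% of all genes). This was H6pd, of the endoplasmic reticulum, higher with 17.8, 7.05, 7.24 and 17.1 CPM in WT and 28, 15.2, 9.56 and 33 CPM in UREΔ GMPs (adjusted p = 0.0223 with the block and 0.396 without, edgeR). The call was lost without replicate 1, 2 or 4. DESeq2, the fit without the low-count filter and the joint fit of 16 libraries each called 2 genes of this list higher.

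Falls in the list of pyruvate oxidation, the TCA cycle and the malate shuttle included Slc25a12. This aspartate and glutamate carrier of mitochondria had 262, 242, 236 and 300.04 CPM in WT and 36.4, 66.8, 40.9 and 39.5 CPM in UREΔ GMPs and was 5.81-fold lower without overlap (log2 fold change −2.54, standard error 0.20, edgeR adjusted p = 0.000235), and its relative Slc25a13 had 72.4, 65.7, 59.5 and 65.2 CPM in WT and 38.5, 37.1, 31.1 and 36.6 CPM in UREΔ GMPs (log2 fold change −0.88, standard error 0.13, edgeR adjusted p = 0.00318). Me2, the mitochondrial malic enzyme, had 299, 261, 258 and 413 CPM in WT and 188, 142, 153 and 122 CPM in UREΔ GMPs (log2 fold change −1.01, standard error 0.19, edgeR adjusted p = 0.00946). Idh2, isocitrate dehydrogenase, had 429, 439, 329 and 379 CPM in WT and 216, 299, 199.6 and 273 CPM in UREΔ GMPs. Sdhb, of succinate dehydrogenase, had 312, 403, 483 and 424 CPM in WT and 225, 220.5, 316 and 193 CPM in UREΔ GMPs. In total 6 of 40 genes of pyruvate oxidation, the TCA cycle and the shuttle were lower and Pdk2, an inhibitor of pyruvate dehydrogenase, was higher, with a median of −0.06. The call of Pdk2 was lost without the block, within pairs 1 and 4, with Y-linked transcripts as a term, and without replicate 1 or 4 (adjusted p between 0.0546 and 0.231, edgeR). The share called, 17.5%, was near the 16.3% of all genes. Without the block 5 were lower, and within pairs 1 and 4 there were 3. Idh2 had an adjusted p of 0.0519 without replicate 1 and Sdhb of 0.052 without replicate 2 (edgeR). The adjusted p within pairs 1 and 4 was 0.12 for Idh2, 0.11 for Sdhb and 0.0563 for Slc25a13. Oxidative phosphorylation held 1 called gene among 72 tested (1.39% against 16.3% of all genes). This was Ndufb8 of complex I with 270.5, 394, 578 and 439 CPM in WT and 239, 248, 292 and 209 CPM in UREΔ GMPs. Its adjusted p of 0.0219 became 0.0773 without the block and between 0.0628 and 0.0768 without replicate 2, 3 or 4 (edgeR). Without replicate 1 there were 3 called lower in the list. The median of that list was −0.16, and the 13 transcripts of the mitochondrial genome held none called by edgeR with the block (1 at an unadjusted p under 0.05). DESeq2, edgeR without replicate 3 and edgeR without the low-count filter each called 1 of them higher.

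Among 31 genes of fatty acid and triglyceride synthesis 8 were higher and none lower (25.8% called against 16.3% of all genes), with a median of 0.23. The list also holds lipases, among them Mgll. DESeq2 and the fits without replicate 2 or 3 each called 1 gene of this list lower. Dgat2, which makes triglycerides from diacylglycerol, had 5.38, 4.54, 3.28 and 5.47 CPM in WT and 45.6, 61.9, 11.8 and 67.1 CPM in UREΔ GMPs and was 8.65-fold higher (log2 fold change 3.11, standard error 0.32, edgeR adjusted p = 0.000678), with UREΔ replicate 3 lowest in its group. Mgll, monoglyceride lipase, had 1.08, 0.981, 1.62 and 0.995 CPM in WT and 6.0, 9.96, 6.71 and 7.33 CPM in UREΔ GMPs (log2 fold change 2.68, standard error 0.31, edgeR adjusted p = 0.00104). Agpat2, an acyltransferase of triglyceride synthesis, had 11.2, 16.8, 12.1 and 14.7 CPM in WT and 33.4, 38, 26 and 45.6 CPM in UREΔ GMPs (log2 fold change 1.37, standard error 0.16, edgeR adjusted p = 0.00121). For all of these enzymes the genotypes were separate. Mlx, the partner of carbohydrate-responsive transcription factors, had 52.1, 72.1, 43.6 and 50.3 CPM in WT and 113, 165, 84.8 and 165 CPM in UREΔ GMPs (log2 fold change 1.24, standard error 0.15, edgeR adjusted p = 0.00149). Plin3, a lipid droplet coat protein, had 58.4, 62.1, 38.7 and 72.4 CPM in WT and 117, 155, 60.3 and 149.8 CPM in UREΔ GMPs, with an adjusted p of 0.00295 with and 0.0731 without the block (edgeR). Without the block 4 of the 8 were called and within pairs 1 and 4 there were 5. Of 34 genes of fatty acid uptake and oxidation 2 were higher (5.88% against 9.52% of all genes), among them Acadl, a mitochondrial acyl-CoA dehydrogenase, with 59.7, 56.7, 49.8 and 35.4 CPM in WT and 93.4, 100.01, 86.5 and 166 CPM in UREΔ GMPs (log2 fold change 1.11, standard error 0.26, edgeR adjusted p = 0.0234). A single gene of this list was called higher without the block, within pairs 1 and 4, and without replicate 3 or 4. Slc27a3, of the fatty acid transport protein family and among the largest rises, is not in this list.

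Cholesterol genes gave 2 rises and 2 falls of 34 tested, a share of 11.8% called against 16.3% of all genes. Fdps, which makes farnesyl diphosphate, had 128, 191, 179 and 141 CPM in WT and 51.6, 96.1, 69.8 and 58.4 CPM in UREΔ GMPs (log2 fold change −1.23, standard error 0.12, edgeR adjusted p = 0.000631). Apob, the apolipoprotein of liver and gut, had 0.116, 0, 0 and 0 CPM in WT and 9.0, 0.58, 7.79 and 2.89 CPM in UREΔ GMPs, with 3 counts in all in WT, so that no fold is given. The other fall was Vldlr, whose adjusted p without the block was 0.0878 (edgeR). Leaving out 1 replicate at a time gave 1 or 2 rises and between 1 and 3 falls.

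**Figure D4:**
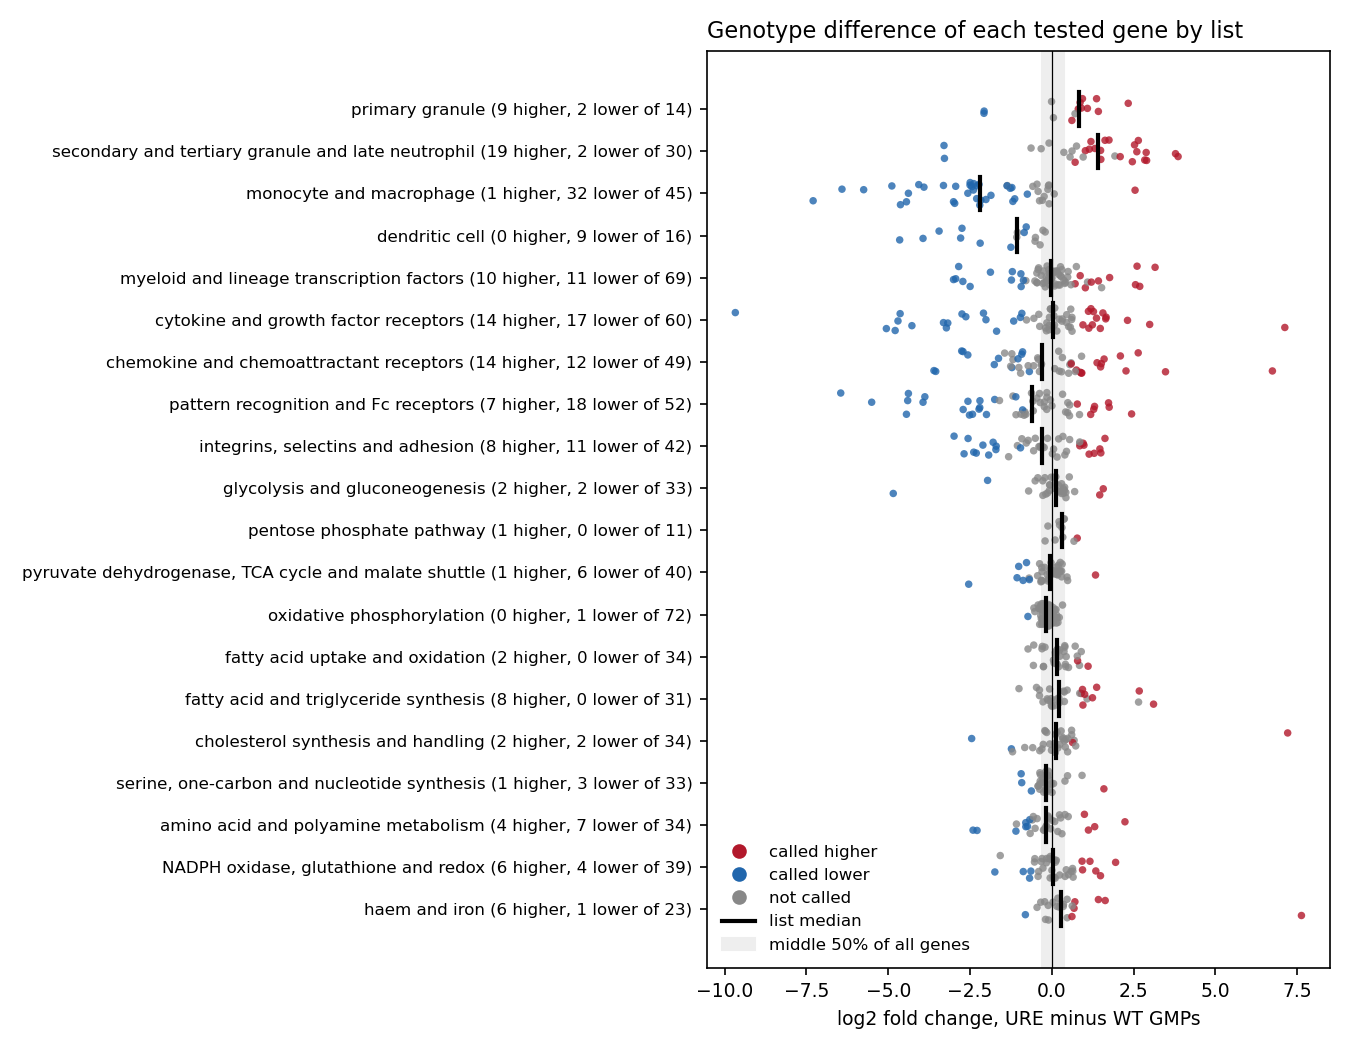
Log2 fold change (UREΔ minus WT GMPs, horizontal axis) of each tested gene in 20 lists of the granulocyte, monocyte, transcription factor, receptor and metabolic programmes. Points are genes (red called higher, blue called lower, grey not called), black bars list medians, and the grey band the middle 50% of all 13829 genes. The monocyte list has its median at −2.20 and the late neutrophil list at 1.41, while the medians of the metabolic lists lie between −0.18 and 0.31.

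Amino acid and polyamine metabolism held 7 falls and 4 rises among 34 genes (32.4% called against 16.3% of all genes). Bcat1, the cytosolic branched-chain aminotransferase, had 2.87, 3.92, 3.01 and 2.58 CPM in WT and 0.557, 0.759, 0.28 and 0.798 CPM in UREΔ GMPs (log2 fold change −2.41, standard error 0.38, edgeR adjusted p = 0.00417). Kmo, of tryptophan breakdown, had 10.7, 11.6, 13.5 and 8.69 CPM in WT and 2.23, 3.08, 2.52 and 1.45 CPM in UREΔ GMPs (log2 fold change −2.28, standard error 0.23, edgeR adjusted p = 0.000636). Glud1, glutamate dehydrogenase, had 35.1, 40.7, 59.1 and 70.3 CPM in WT and 19.9, 24.2, 23.7 and 24.9 CPM in UREΔ GMPs. The lowest WT library exceeded the highest UREΔ library for each of them. The rises included a transporter. Slc7a7, an exporter of basic amino acids, had 4.18, 3.85, 2.74 and 3.26 CPM in WT and 14, 19.7, 14 and 18.7 CPM in UREΔ GMPs (log2 fold change 2.24, standard error 0.22, edgeR adjusted p = 0.000532). Asns, asparagine synthetase, had 47.9, 49.8, 29.4 and 50.7 CPM in WT and 86.9, 100.1, 71.3 and 128 CPM in UREΔ GMPs (log2 fold change 1.12, standard error 0.14, edgeR adjusted p = 0.00159). Without the block 3 genes were called in each direction, and without replicate 4, as within pairs 1 and 4, there were 4 falls and 2 rises. Of 33 genes of serine, one-carbon and nucleotide synthesis 3 were lower and 1 higher (12.1% called against 16.3% of all genes), and within pairs 1 and 4 there was 1 in each direction. Mthfd2, of the mitochondrial folate cycle, had 46.8, 43.1, 36 and 40.1 CPM in WT and 22, 23.7, 17.6 and 24.9 CPM in UREΔ GMPs (log2 fold change −0.92, standard error 0.14, edgeR adjusted p = 0.00406). Pfas, of purine synthesis, had 233, 191, 248 and 304 CPM in WT and 148, 105, 140.3 and 115 CPM in UREΔ GMPs (log2 fold change −0.94, standard error 0.15, edgeR adjusted p = 0.00447). Impdh1, of guanine nucleotide synthesis, had 127, 18.6, 8.41 and 67.8 CPM in WT and 231, 54.9, 28.1 and 317 CPM in UREΔ GMPs, where replicates 1 and 4 exceeded 2 and 3 in both genotypes (adjusted p = 0.00213 with the block and 0.432 without, edgeR).

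Of 23 haem and iron genes tested 6 were higher and 1 lower (30.4% called against 16.3% of all genes), with a median of 0.28. Heph, described above, is in this list. Slc40a1, the iron exporter ferroportin, had 95.2, 105, 35.2 and 99.3 CPM in WT and 321, 218, 160.2 and 292 CPM in UREΔ GMPs and was higher in each pair (log2 fold change 1.63, standard error 0.19, edgeR adjusted p = 0.00103). Tfr2, transferrin receptor 2, had 77.3, 42.1, 14.4 and 67.9 CPM in WT and 165, 80.5, 86.3 and 152 CPM in UREΔ GMPs (log2 fold change 1.43, standard error 0.27, edgeR adjusted p = 0.00901), with an adjusted p of 0.165 without the block. Alas1, the first enzyme of haem synthesis outside erythroid cells, had 1081, 1298, 815 and 1274 CPM in WT and 2009, 2696, 1019 and 1745 CPM in UREΔ GMPs (log2 fold change 0.68, standard error 0.17, edgeR adjusted p = 0.0263), and its adjusted p was 0.182 without the block, 0.105 without replicate 1 and 0.151 without replicate 2 (edgeR). Without the block 3 rises and 1 fall were called, and without replicate 1, as within pairs 1 and 4, there were 3 rises and no fall. NADPH oxidase, glutathione and other redox genes gave 6 rises and 4 falls of 39 (25.6% called against 16.3% of all genes), and 3 rises and no fall without the block. Within pairs 1 and 4 there were 5 rises and 2 falls. Gsta4, a glutathione transferase, had 1.2, 3.05, 2.56 and 2.99 CPM in WT and 7.84, 9.02, 11.3 and 8.28 CPM in UREΔ GMPs (log2 fold change 1.95, standard error 0.28, edgeR adjusted p = 0.00292). Prdx4, a peroxiredoxin of the secretory pathway, had 33.8, 36.9, 42.7 and 31.5 CPM in WT and 13.1, 5.18, 24 and 7.83 CPM in UREΔ GMPs (log2 fold change −1.74, standard error 0.31, edgeR adjusted p = 0.00711; 0.0604 without the block). Leaving out replicate 1, 2, 3 or 4 gave 4, 6, 4 and 2 rises and 1, 3, 1 and 3 falls in the redox list.

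Genes at the floor in one genotype and clearly present in the other were collected as switched. A gene was switched on where all WT libraries lay under 1 CPM and all UREΔ libraries at 5 CPM or more, and switched off where the reverse held, among called genes. By this rule 14 genes were switched on and 12 off. The rule uses every library, so it fixes the direction of these genes within any pair. Their calls in other fits are not independent support.

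The switched-on genes were Heph, Slc27a3, Tinagl1, Ptprn, Lypd6b, Mst1r, Pcdh11x, Maob, Rhou, Ces1d, Pgr, Serpina12, Ccdc162 and Sbspon. Slc27a3, of the fatty acid transport protein family, had 0.116, 0.291, 0.27 and 0.362 CPM in WT and 31, 21.9, 28.1 and 24.5 CPM in UREΔ GMPs (log2 fold change 6.64, standard error 0.33, edgeR adjusted p = 4.81e-05). Tinagl1, a secreted matrix-associated protein, had 0.736, 0.69, 0.63 and 0.995 CPM in WT and 27.2, 18.8, 23.1 and 30.7 CPM in UREΔ GMPs (log2 fold change 5.02, standard error 0.21, edgeR adjusted p = 2.13e-05). Pcdh11x, a protocadherin of neurons, had 0, 0, 0 and 0 CPM in WT and 17.5, 8.17, 13.8 and 23.7 CPM in UREΔ GMPs, at least 128-fold higher in UREΔ against a floor of 3 counts per WT library. Maob, the mitochondrial monoamine oxidase B, had 0.194, 0.436, 0.36 and 0.407 CPM in WT and 15, 19.1, 6.29 and 17.2 CPM in UREΔ GMPs. The lowest UREΔ value of Maob was in replicate 3. Ces1d, a carboxylesterase of liver and fat, had 0, 0.0363, 0.090 and 0.0905 CPM in WT and 7.54, 9.64, 6.25 and 16 CPM in UREΔ GMPs. Pgr, the progesterone receptor, had 0, 0.0363, 0 and 0.498 CPM in WT and 7.41, 5.58, 8.91 and 12.1 CPM in UREΔ GMPs. Rhou, an atypical small GTPase, had 0.581, 0.909, 0.54 and 0.905 CPM in WT and 9.26, 17.5, 6.71 and 9.62 CPM in UREΔ GMPs. Heph, Pcdh11x and Maob are X-linked, and Heph and Maob rose by 7.76 and 5.74 on the log2 scale within the sex-matched pairs 1 and 4. No such value is given for Pcdh11x, which had no count in WT. Sbspon shares 2001 exonic bases with a gene model on the other strand. All 14 were called without the block.

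The genes switched off were Gm10384, Il31ra, Ms4a4c, Mgl2, Il12rb2, Pik3r6, Ms4a4b, Eps8, Clec10a, C1ra, Nr0b2 and Siglece. Gm10384, a long non-coding RNA on chromosome 15 from 36870501 to 36879816, had 15.8, 18.3, 24.2 and 18.8 CPM in WT and 0.0857, 0.536, 0.233 and 0.0499 CPM in UREΔ GMPs (log2 fold change −6.46, standard error 0.46, edgeR adjusted p = 0.000187). Mgl2 and Clec10a, a pair of galactose-type lectins of macrophages and dendritic cells, had 9.37, 17.4, 11.8 and 10.8 CPM in WT and 0, 0, 0.0932 and 0.0997 CPM in UREΔ GMPs and 7.55, 5.89, 9.36 and 8.69 CPM in WT and 0, 0.0893, 0.28 and 0 CPM in UREΔ GMPs. Ms4a4c had 11, 15.1, 24.7 and 11.1 CPM in WT and 0.0857, 0.223, 0 and 0.0499 CPM in UREΔ GMPs. Pik3r6, a regulatory subunit of phosphoinositide 3-kinase gamma, had 12.8, 6.87, 7.24 and 8.19 CPM in WT and 0, 0.848, 0.233 and 0.0499 CPM in UREΔ GMPs. Several of these genes had no count in 1 or more UREΔ libraries. Nr0b2, an orphan nuclear receptor that represses transcription, had 5.73, 5.41, 6.88 and 7.1 CPM in WT and 0, 0.223, 0 and 0 CPM in UREΔ GMPs. Siglece, an inhibitory sialic acid receptor, had 7.82, 5.92, 5.35 and 5.07 CPM in WT and 0.0429, 0.0893, 0.186 and 0.199 CPM in UREΔ GMPs. C1ra, of the complement cascade, had 8.71, 8.43, 5.4 and 6.51 CPM in WT and 0.471, 0.804, 0.14 and 0.299 CPM in UREΔ GMPs. Reads of near-identical copies, such as Mgl2 and Clec10a or the Ms4a4 and Ms4a6 genes, were divided among them by the quantification, so the split between such copies is uncertain. All 12 were called without the block.

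**Figure D5:**
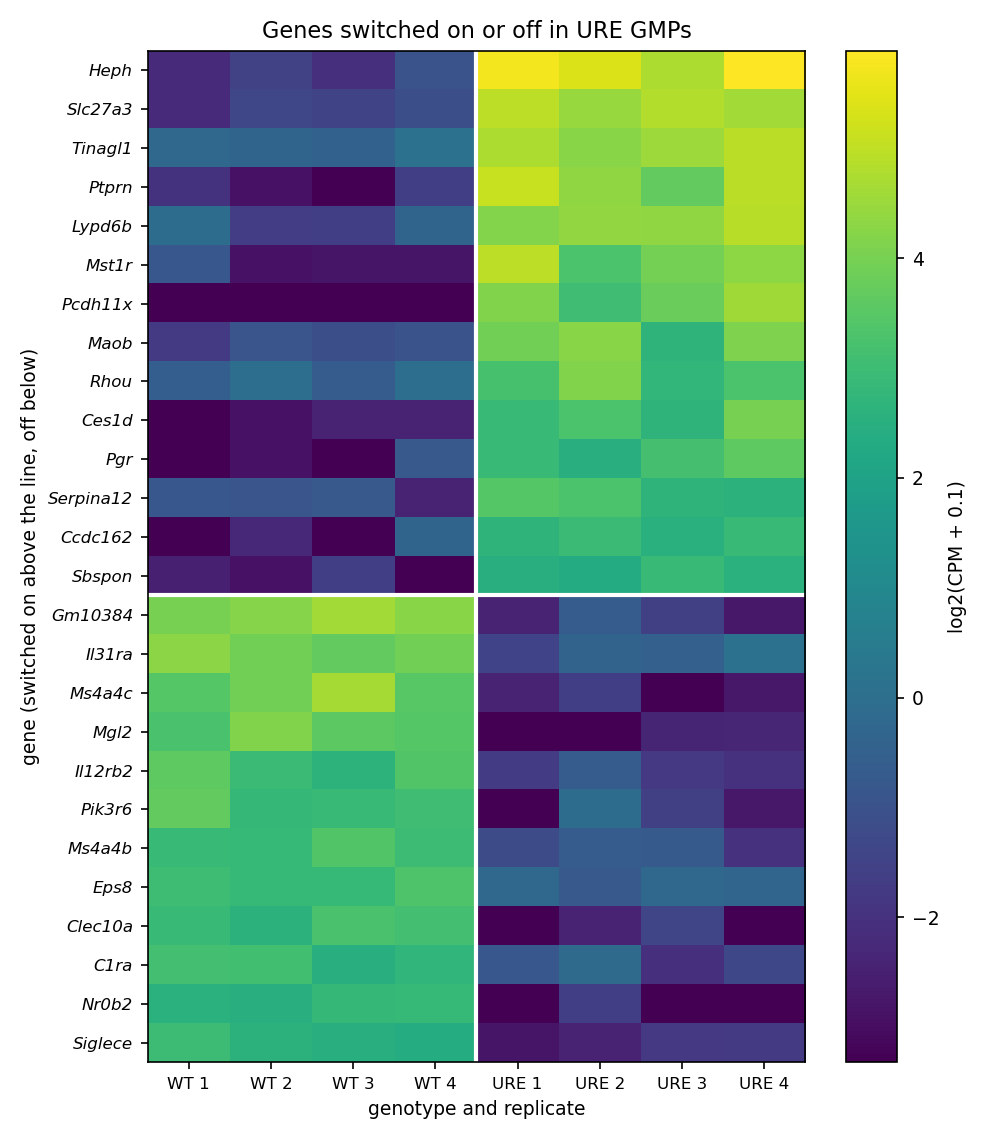
Level as log2(CPM + 0.1) (colour scale) of the 14 genes switched on (upper block) and 12 genes switched off (lower block) in each of 4 WT and 4 UREΔ GMP libraries. The darkest cells are libraries under 1 CPM, and libraries at 5 CPM or more run from green to yellow.

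Markers of other cells that the gate could hold were examined beside these results. Of 14 erythroid and 11 megakaryocyte markers tested none were called by edgeR with the block or by DESeq2 (0 and 1 at an unadjusted p under 0.05 in edgeR). In edgeR 2 erythroid markers were called higher without replicate 2, and 1 megakaryocyte marker lower without replicate 3 and without the low-count filter. Their summed levels ranged over 386 to 973 CPM in WT and 232 to 1607 CPM in UREΔ for the erythroid list and over 166 to 330 CPM and 106 to 388 CPM for the megakaryocyte list. Of 9 eosinophil markers 7 were lower (77.8% called against 16.3% of all genes). The sums of the list were 545 to 1121 CPM in WT and 75 to 291 CPM in UREΔ GMPs, without overlap. Prg2, eosinophil major basic protein, had 354, 873, 570.01 and 501 CPM in WT and 46.9, 188, 244 and 141 CPM in UREΔ GMPs (log2 fold change −2.04, standard error 0.26, edgeR adjusted p = 0.00154). Epx, eosinophil peroxidase, had 126, 128, 27 and 202 CPM in WT and 8.4, 29.6, 12.2 and 15 CPM in UREΔ GMPs (log2 fold change −2.74, standard error 0.46, edgeR adjusted p = 0.00574). Of 9 basophil and mast cell markers 3 were lower and 1 higher (44.4% called against 16.3% of all genes). Ms4a2, the beta chain of the IgE receptor, had 55.4, 79.1, 57.2 and 71.7 CPM in WT and 1.24, 9.96, 17.5 and 5.98 CPM in UREΔ GMPs (log2 fold change −3.32, standard error 0.52, edgeR adjusted p = 0.00412). Prss34, a basophil protease, had 111, 218, 140.1 and 196 CPM in WT and 11.7, 45.7, 49.7 and 16.9 CPM in UREΔ GMPs (log2 fold change −2.63, standard error 0.33, edgeR adjusted p = 0.00159). Mcpt8, another basophil protease, was higher with 65.8, 104, 93.5 and 64.5 CPM in WT and 390.4, 115, 170.5 and 236 CPM in UREΔ GMPs (log2 fold change 1.36, standard error 0.36, edgeR adjusted p = 0.036), though at an adjusted p of 0.104 without replicate 1 and 0.149 without replicate 4. The part of these cells in the results on Il5ra and other receptors was not tested.

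Of 10 T and NK lineage markers tested 4 were higher and none lower (40.0% called against 16.3% of all genes). The summed levels of this list ranged over 16.8 to 20.2 CPM in WT and 85.5 to 310.1 CPM in UREΔ. Trat1 made up most of that sum in UREΔ libraries. Gzmb, granzyme B, had 2.05, 4.87, 1.62 and 1.9 CPM in WT and 37.6, 6.7, 93.2 and 26.1 CPM in UREΔ GMPs (log2 fold change 3.63, standard error 0.80, edgeR adjusted p = 0.0187). Prf1, perforin, had 0.271, 0.436, 0.495 and 0.0905 CPM in WT and 1.71, 1.96, 1.21 and 2.54 CPM in UREΔ GMPs. Cd247, a T-cell receptor chain, had 0.232, 0.436, 0.225 and 0.498 CPM in WT and 2.49, 1.03, 2.19 and 1.8 CPM in UREΔ GMPs. Without replicate 1 their adjusted p values were 0.0869, 0.0706 and 0.0643, and Trat1 alone stayed called in this list, and Gzmb had 0.0894 without replicate 4 (edgeR). Cd247 shares 3007 exonic bases with Pou2f1 on the other strand. Of the T-cell receptor chains Cd3e was at 0 in all libraries, and Cd3d and Cd3g stayed at or below 0.420 and 0.326 CPM. The lineage stain, by which the sort removed cells, included Cd3, Cd4 and Cd8. The part of T or NK cells in the rises of Trat1, Gata3 and Tcf7 was not tested. Of 6 B lineage markers tested 4 were lower (66.7% called against 16.3% of all genes). Cd79b, a B-cell receptor chain, had 54.7, 59.7, 78 and 77.4 CPM in WT and 7.24, 15.8, 21.3 and 9.97 CPM in UREΔ GMPs. Dntt, of early lymphoid cells, had 24.1, 17, 41.6 and 28.5 CPM in WT and 11.4, 5.4, 12.4 and 8.18 CPM in UREΔ GMPs. The defining marker Pax5 was at 0 in all libraries, and 2 of the 4 falls were called without replicate 1.

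Of 15 stem and multipotent progenitor markers tested 5 were lower and none higher (33.3% called against 16.3% of all genes). The 5 were Cd34, Flt3, Hoxa9, Meis1 and Procr. Without the block Cd34 and Flt3 were called, and without replicate 1, 2 or 4 there were 3, Meis1 being lost each time (adjusted p = 0.104, 0.113 and 0.146, edgeR). The summed level of this list ranged over 1575 to 1749 CPM in WT and 690.5 to 892 CPM in UREΔ. None of 16 S phase genes and none of 18 mitosis genes were called by edgeR or DESeq2 (2 and 2 at an unadjusted p under 0.05 in edgeR), with median log2 fold changes of −0.11 and −0.17. In the list of 10 early response genes Jun was the one called (10.0% against 16.3% of all genes). It was higher in UREΔ with the block (adjusted p = 0.0118) and not called without it (0.173, edgeR). Of 3 stromal and endothelial genes tested, Col1a2 was higher and Emcn lower (66.7% called against 16.3% of all genes). The call of Emcn was lost without the block, with Y-linked transcripts as a term, and without replicate 1, 2 or 4 (adjusted p between 0.0667 and 0.104, edgeR), and the list summed to at most 21.1 CPM in a library.

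Whether the genotype effect differed between GMPs and LSKs was tested over all 16 libraries. The effects differed for 1047 of 15935 genes (6.57%), more positive in GMPs for 632 (3.97%) and more negative for 415 (2.60%), and for 194 genes without the block. Ptprn rose in GMPs and had a log2 fold change of 0.34 in LSKs, a difference of 7.56 (adjusted p = 0.000154, edgeR), and Ednra had 1.46 in LSKs, a difference of 5.31 (adjusted p = 5.91e-05). Tinagl1 had 0.37 in LSKs, a difference of 4.65 (adjusted p = 3.33e-05). Ldhb fell in both cell types, with a log2 fold change of −1.45 in LSKs and a larger one in GMPs, a difference of −3.37 (adjusted p = 1.62e-06). Gstm1 had 0.25 in LSKs (difference 2.12, adjusted p = 0.0014), Lcn2 0.50 (difference 3.30, adjusted p = 0.00121), and Il1r2 −1.5 (difference 4.43, adjusted p = 0.00278, edgeR). Ets1 was lower in UREΔ LSKs at −1.33 and higher in GMPs, a difference of 3.09 (adjusted p = 0.000419), and Prtn3 was lower in LSKs at −2.53, a difference of 2.61 (adjusted p = 0.000347). For Irf8 the effect was −3.25 in LSKs, with a difference of 0.38 (adjusted p = 0.752), and for Slc25a12 −2.49 with a difference of −0.03 (adjusted p = 0.969). Among the tested genes of the monocyte list the interaction was called for 6 of 45, and among those of the cytokine receptor list for 18 of 60.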

How the data were processed

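GMPs and LSKs were sorted from 4 mice per genotype, and their RNA was sequenced as paired ends. The authors quantified transcripts with Salmon and summarised them per gene with tximport on GRCm38, and they deposited estimated counts (expected counts, whole numbers) for 54347 genes in 16 libraries. The versions and the annotation release are not given in the sources used here. Gene names and positions came from the GENCODE annotation of GRCm38, which held 54094 of these genes. Without molecular identifiers, counts cover counting error only.

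The 8 GMP libraries (20028302 to 27867976 counts) were grouped by their labels. Genes were filtered with filterByExpr, scaled with TMM and tested with edgeR 4.0.16 (R 4.3.3, quasi-likelihood test) for genotype with the replicate number as a block, with Benjamini-Hochberg adjustment over all genes. The call needed an adjusted p under 0.05 and a fold above 1.5. The study used DESeq2, which served as an alternative (1.42.0). Same-numbered libraries deviated together (r between 0.285 and 0.630, above the limit of 0.1), and other pairs of libraries gave r between −0.544 and 0.482. The labels do not say what a number marks. Between replicates of a group the chi-square over its degrees of freedom was 60.7 or more, so that each counted as a sample of its own. In simulated data with 200 of 13829 genes changed 4-fold, the block fit of this comparison recovered 85.5% of them, with 3.39% of its calls false. The simulated genotypes shared each replicate effect and did not differ in sex, unlike the data. These shares therefore check the fit only and do not carry over to the calls reported here.

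The genes named are Spi1, the 15 largest rises and falls with no overlap and a mean of at least 3 log2 CPM, the genes switched on or off, and list members past the test or at the extremes. Other list members named (such as Prtn3, Lyz2, Cebpa, Myb, Kit and Ldha) were chosen after their values were seen. The comparison, the gene lists and the markers were chosen with earlier results of these data known. Lists covered granulocyte, monocyte and dendritic genes, transcription factors, receptors, metabolism and the markers of other cells, and they are described by counts and medians. Alternatives were no block, other scaling, filters and thresholds, DESeq2, a joint fit of 16 libraries, a term for Y-linked transcripts, pairs 1 and 4 or 2 and 3 alone, and leaving out each replicate number. Promoters came from RefSeq (GRCm38.p6). Figures were drawn with matplotlib 3.10.9. Some genes that the rule or the lists include are not reported here.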

Additional observations from a re-analysis of the deposited data

Results flagged for a closer look

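Among 98 groups of 4 libraries checked, 13 held a library far from the other 3 by Dixon's ratio, where chance gives about 1 in 20 groups, or 4.9 here. UREΔ replicate 2 was the high one for Ms4a6c (14.4 CPM against 0.598 to 2.94 CPM), BE692007 (1.43 CPM), Nrg1 (4.91 CPM), Il12rb2 (0.536 CPM) and Nr0b2 (0.223 CPM, the others at 0). Ms4a6c and BE692007 share exonic bases, so that they are not separate observations. UREΔ replicate 3 was high for Cd74 (11.6 CPM against 2.28 to 3.79 CPM) and low for Ednra (46 CPM against 94.8 to 104.6 CPM). WT replicate 1 was high for Cd300a (78.2 CPM), Mst1r (0.465 CPM) and Clu (5.34 CPM against 4.25 to 4.36 CPM). WT replicate 4 was high for Pgr (0.498 CPM) and Ccdc162 (0.679 CPM) and low for Serpina12 (0.0905 CPM).

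The genotype effect differed between GMPs and LSKs for 17 of 48 genes checked, and for 11 without the block, against 6.57% of all genes. These genes were picked for large effects in GMPs, so that their share cannot be compared with that of all genes. The log2 effect in GMPs minus that in LSKs was 2.66 for Spi1, 7.56 for Ptprn, 6.42 for Mst1r, 5.31 for Ednra, 5.03 for Shroom2 and 4.65 for Tinagl1. It was 3.81 for Maob, 3.57 for Sbspon, 3.37 for Trat1, 3.12 for Chit1, 3.09 for Ptgds and 3.05 for Ptprf. It was negative for Nrg1 (−5.15), Ldhb (−3.37), Ms4a4b (−2.65), Cd74 (−2.55) and C1ra (−2.45).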

How the results depend on the processing

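Of 1317 higher and 943 lower genes, 646 and 502 were called without the replicate block, 489 and 378 with Y-linked transcripts as a term, 736 and 608 in pairs 1 and 4 alone, and 105 and 66 in pairs 2 and 3 alone. Leaving out 1 replicate number gave 787 to 1078 higher and 580 to 885 lower genes. Other scaling gave 1297 and 944, no filter 1723 and 1238, a filter of 1 CPM 1177 and 835, the joint fit 1596 and 1133, DESeq2 1627 and 1186, and a fold above 2 885 and 670. Some of these fits did not test all 2260 called genes, the filter of 1 CPM keeping 2020 of them. In each fit none of the called genes tested there changed direction. Each fit reused the GMP libraries that picked these genes, or some of them, so this is not independent support. The switched genes numbered 35 on and 34 off in pairs 1 and 4 alone, 5 and 3 with limits of 1 and 10 CPM, and 10 and 5 with limits of 0.5 and 5 CPM, and leaving out a replicate gave 14 to 19 on and 15 to 18 off. The interaction was called for 194 genes without the block and 2030 in DESeq2, against 1047. Spi1 had −2.28 in pairs 2 and 3 alone (adjusted p = 0.0718, edgeR) and −3.09 to −2.53 without 1 replicate. The genes that changed sign were 5, none of them called. Prtn3 had −0.1072 in pairs 2 and 3 and −0.1137 to 0.2805 without 1 replicate (negative without replicate 2, at −0.108, or 4), Lyz2 0.0153 in pairs 2 and 3 and −0.2837 to 0.0146 without 1 (positive also without replicate 1, at 0.0046), and Myb −0.1866 to 0.049 (positive without replicate 3 or 4, 0.0443). Kit had −0.0075 with the Y term and −0.0279 in pairs 1 and 4, and Ldha 0.0371, 0.0196 and, without 1 replicate, −0.1859 to 0.0027. The causes were not tested. Of 189 called genes named or examined, 140 stayed called without the block, 161 in pairs 1 and 4, 64 in pairs 2 and 3, 151 with the Y-linked term, and 160, 170, 184 and 165 without replicates 1 to 4. Depth limits genes near 1 CPM.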

Other observations

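Protein-coding genes made up 86.1% of the genes tested, 91.9% of those called higher and 90.1% of those called lower. X-linked genes made up 3.17% of those tested, 3.57% of the higher (47 genes) and 2.76% of the lower (26 genes). Xist was called higher in UREΔ GMPs (log2 fold change 6.50). This call was lost without the block, within pairs 1 and 4, with Y-linked transcripts as a term, and without replicate 1, 2 or 3. The Y-linked genes Ddx3y, Eif2s3y, Kdm5d and Uty had log2 fold changes of −6.13, −6.24, −4.86 and −4.83. They were not called with the block, and were called lower without the low-count filter and in pairs 2 and 3 alone. Male RNA was in 3 WT libraries and 1 UREΔ library.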
